A study of Mus musculus with 6 samples.

Results

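The ERK feedback genes are a set of 10 transcripts that cells switch on when the MAP kinase ERK is active and whose products act on the same pathway: the phosphatase genes Dusp4, Dusp5 and Dusp6, the Sprouty genes Spry1, Spry2 and Spry4, the Spred genes Spred1 and Spred2, and the transcription factor genes Etv4 and Etv5. They were taken by gene symbol from a table of 18956 genes, and all 10 were found there and passed the filter on low values. RNA had been sequenced from lung endothelial cells of mice in 2 groups of 3 libraries, 1 labelled WT and Cre-neg and 1 labelled CSE-KO and Cre-pos. CSE is cystathionine gamma-lyase, the enzyme that makes cysteine from cystathionine. The sources used here do not give the strain or age of the mice, the Cre driver, the deleted part of the gene, or whether the libraries came from separate animals or cultures. By its title, the study is about cystine use, histone acetylation and vessel growth. RNA was measured, and no measure of ERK phosphorylation was used here.

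Growth factors such as VEGF and FGF bind receptor tyrosine kinases, which load RAS with GTP, and RAS passes the signal through RAF and MEK to ERK. ERK then raises the transcripts of its own brakes: Sprouty and Spred proteins hold RAS and RAF back at the membrane, and dual-specificity phosphatases take the phosphates off ERK. Etv4 and Etv5 belong to the PEA3 group of ETS transcription factors, whose transcripts follow FGF and ERK signalling in many tissues, and in vessels the Sprouty and Spred proteins are known to restrain the growth of blood and lymphatic endothelium.

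The bases just before the transcription start are shown for Dusp6, the member that fell most, and for Spry2, the member that did not pass the test. They were read from the RefSeq promoter table (build GRCm38.p6), from which 8 windows for 7 of the members were used here. No window was used for Dusp4, Spry4 or Etv4, so the motif counts below do not cover them. Capitals mark GGAA or its reverse complement, the core letters of ETS sites.
Dusp6, chr10:99262981-99263230, plus strand: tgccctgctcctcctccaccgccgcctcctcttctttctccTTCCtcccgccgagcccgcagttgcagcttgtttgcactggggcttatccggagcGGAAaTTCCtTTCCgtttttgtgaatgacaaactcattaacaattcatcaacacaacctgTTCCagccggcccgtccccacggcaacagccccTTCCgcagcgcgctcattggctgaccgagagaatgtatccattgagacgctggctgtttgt
Spry2, chr14:105896820-105897069, minus strand: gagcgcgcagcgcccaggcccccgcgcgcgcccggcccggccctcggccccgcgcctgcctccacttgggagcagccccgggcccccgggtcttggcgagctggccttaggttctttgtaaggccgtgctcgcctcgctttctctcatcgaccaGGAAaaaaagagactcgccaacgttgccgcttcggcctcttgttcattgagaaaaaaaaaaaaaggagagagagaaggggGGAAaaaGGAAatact
The Dusp6 window held 6 such cores and the Spry2 window 3, and the median over all 32851 windows of 250 bases was also 3, with at least 1 core in 93.4% of them. GC content was 56.4% before Dusp6 and 62.4% before Spry2, against a median of 52.4%. Searched on both strands, 4 longer motifs were found in 0 of the 8 member windows: CCGGAA, an ETS site that contains the core (in 12% of all windows), TGANTCA, the AP-1 site (6.75%), TGACGTCA, the cAMP response element (1.55%), and TGATGNAA, the ATF4 composite element (3.45%). That says only that these letters are not in these windows.

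Gene coordinates are on mm10 as the table gives them. Values below are normalized counts, that is reads per gene divided by a size factor for the library and rounded. This unit was inferred from the values, since no header or label names it. They are given with means ± SD over n = 3 libraries, and values of single libraries are given in the order 1, 2, 3 within a group. They summed to between 5698922 and 6052275 per library. Cth, which encodes CSE, stood at 29, 27 and 26 in the WT libraries and at 49, 43 and 63 in the CSE-KO libraries, which goes against the label. The count spans the whole gene and does not check a deletion of part of it, so groups are named by their labels. Of 13750 tested genes, 77.4% were called changed (adjusted p under 0.05 in limma, Benjamini-Hochberg over all tested genes), 38.3% rose and 39.0% fell, and the groups did not overlap in 80.4%. CSE-KO 1 stood apart from CSE-KO 2 and 3. The squared difference of a pair of libraries over their sum averages 1 for counting noise alone, in counts not divided by a size factor. Division shifts that level by an amount not known here. The measure was 1.70 and 1.99 in the pairs that hold CSE-KO 1, 0.85 between CSE-KO 2 and 3, and 0.69 to 0.74 within WT. In genes with under 0.01 normalized counts per exonic base, CSE-KO 2 and 3 gave 1.17 and the WT pairs 0.96 to 1.02. The p-values rest on the spread among libraries alone, and that spread may be technical.

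Endothelial markers were abundant in every library, and their sum over 10 genes lay between 15538 and 15849 in WT and between 10509 and 11161 in CSE-KO, with 9 of the 10 called lower (8 lower and 1 higher with equal totals). Of 5 lymphatic markers 4 were called lower, and those 4 summed to between 11383 and 11518 in WT and between 3765 and 5263 in CSE-KO. The other one, Pdpn, was called higher, at 965, 907 and 901 in the WT libraries and 1022, 1037 and 1024 in the CSE-KO libraries. All 5 together summed to between 12284 and 12483 in WT and between 4789 and 6285 in CSE-KO. Transcripts of some other cells moved too. Of 10 macrophage markers 9 were called higher, and those 9 summed to between 182 and 224 in WT and between 1051 and 1323 in CSE-KO. The other one, Cd14, was called lower, at 788, 775 and 775 in the WT libraries and 315, 216 and 187 in the CSE-KO libraries. All 10 together summed to between 970 and 999 in WT and between 1351 and 1539 in CSE-KO. Ptprc, Adgre1, Csf1r, Mpeg1 and Tyrobp passed the filter on low values through their CSE-KO libraries alone. They could hardly have been called lower, so their calls add little to the count. The defining macrophage genes Ptprc and Adgre1 were listed at 0 in all WT libraries and stood at 18 to 25 and at 36 to 62 in CSE-KO. The 4 mesothelial markers summed to between 4 and 9 in WT and between 104 and 157 in CSE-KO. Fibroblast markers rose in 1 and fell in 1 of 5 tested, and mural markers rose in 2 and fell in 2 of 5. Of 2 tested epithelial markers 0 were called. The part of these cell types in the results below was not tested, and in bulk RNA fewer cells of a type and less RNA per cell cannot be told apart.

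Among the ERK feedback genes, 9 of 10 changed, 3 upward and 6 downward, where 77.4% of all tested genes changed. A count this near the background says little about the set, and the same holds for changes of at least 2-fold, which 3 of the 10 showed beside 22.2% of tested genes. These were Dusp6 and Spry1, which fell (12.3% of tested genes fell as far), and Dusp4, which rose (9.93% rose as far). Etv4 and Etv5 fell to 50.5% and 52.2% of WT. The median log2 fold change of the 10 was −0.50, beside 0.0014 for all tested genes. The groups did not overlap in 9 of the 10 (80.4% of all tested genes), the exception being Spry2.

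**Figure D1:**
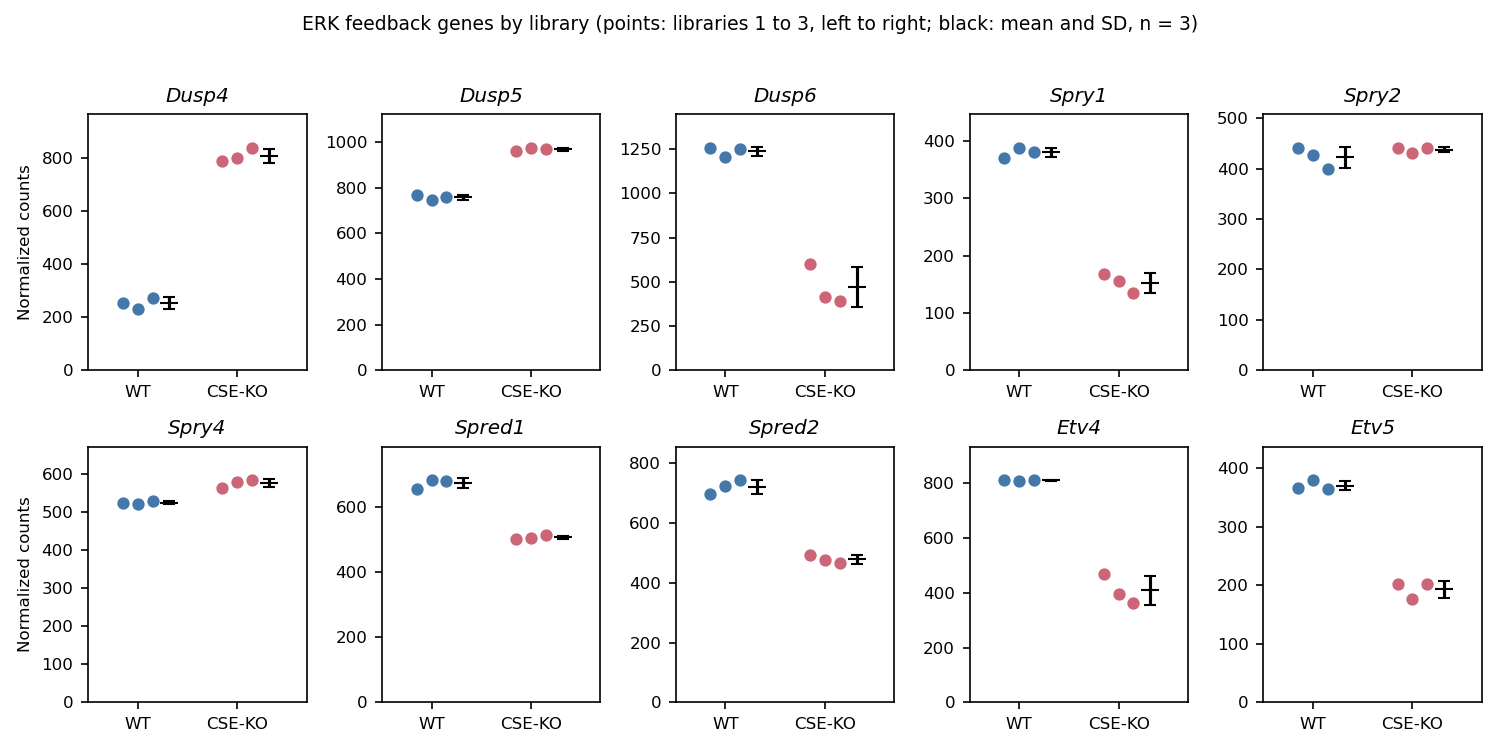
Normalized counts (vertical axes, each from 0) of the 10 ERK feedback genes in the 3 WT and 3 CSE-KO libraries, with black bars for mean and SD. Dusp6 lies between 1208 and 1258 in WT and between 393 and 603 in CSE-KO, and the groups overlap only in Spry2.

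Dusp6 (ENSMUSG00000019960, chromosome 10, 99263231 to 99267489, plus strand) encodes the phosphatase that is specific for ERK and sits in the cytoplasm, and per exonic kb it had the highest level of the 10 in WT. It stood at 1258, 1208 and 1250 in the WT libraries and at 603, 416 and 393 in the CSE-KO libraries. The WT libraries lay close together, and all CSE-KO libraries were lower, CSE-KO 1 the least so. The mean went from 1239 ± 26.9 to 471 ± 115, a log2 fold change of −1.42 (SE 0.19, 95% interval −1.92 to −0.92, adjusted p = 0.0018), and 7.66% of tested genes had a lower value. Without CSE-KO 1 the log2 fold change was −1.61. With WT counted as 1 sample and CSE-KO 2 and 3 as 1, it was −1.33 and no longer passed. These libraries were merged since neither set exceeded 1 over all genes in the measure of spread given above. That does not show that they were at counting noise. In genes with few normalized counts per exonic base, CSE-KO 2 and 3 did exceed 1, at 1.17.

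Dusp4 (ENSMUSG00000031530, chromosome 8, 34807297 to 34819894, plus strand) encodes a phosphatase of the nucleus that acts on ERK and also on the stress kinases JNK and p38. It moved the other way, with 253, 229 and 274 in the WT libraries and 788, 801 and 839 in the CSE-KO libraries. The lowest CSE-KO library was far above the highest WT library. The mean went from 252 ± 22.5 to 809 ± 26.5, a rise of 3.21-fold (log2 fold change 1.68, SE 0.06, adjusted p = 3.1e-09), and 94.6% of tested genes had a lower log2 fold change.

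Dusp5 (ENSMUSG00000034765, chromosome 19, 53529109 to 53542431, plus strand), a phosphatase of the nucleus specific for ERK, rose by less. Its values were 771, 749 and 759 in the WT libraries and 963, 976 and 973 in the CSE-KO libraries, with no overlap and little spread in either group. This was a 1.28-fold rise, or 0.35 on the log2 scale (SE 0.03, adjusted p = 3.5e-07). The annotation places 547 of its exonic bases on the opposite strand of AC137853.2, which was at 9 to 25 in the 6 libraries. Any effect of this overlap on the Dusp5 values was not tested.

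On a scale per length, the level of the 3 phosphatase transcripts together differed little while its make-up shifted. Their summed normalized counts per exonic kb were 806, 772 and 806 in the WT libraries and 870, 820 and 825 in the CSE-KO libraries. Dusp6 made up 49.8%, 49.95% and 49.5% of that sum in WT, against 22.1%, 16.2% and 15.2% in CSE-KO. Dusp4 made up 11.5%, 10.8% and 12.4% in WT, against 33.1%, 35.7% and 37.1% in CSE-KO. Dusp5 held 38.1% to 39.2% in WT and 44.8% to 48.1% in CSE-KO, so the leading transcript was Dusp6 in each WT library and Dusp5 in each CSE-KO library. The sums were not tested.

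**Figure D2:**
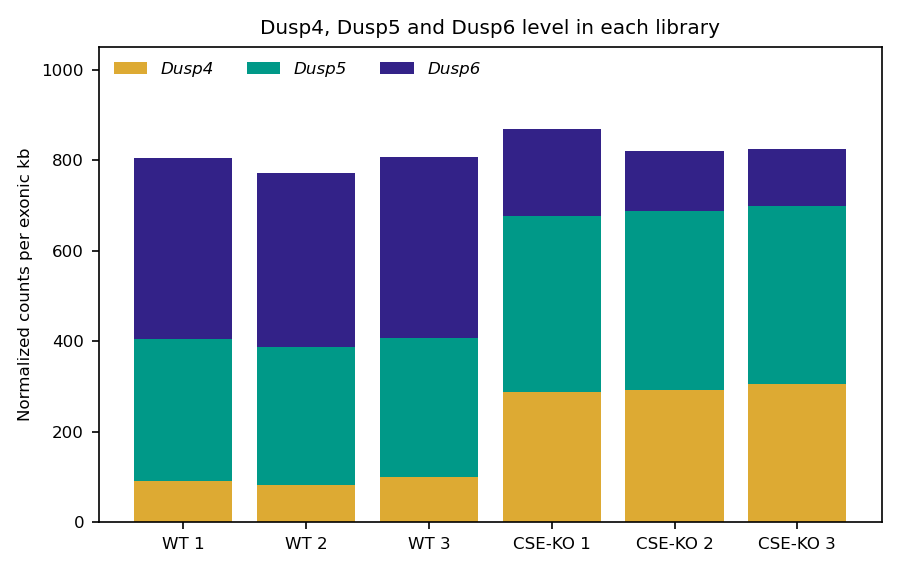
Stacked bars of normalized counts per exonic kb (vertical axis) of Dusp4, Dusp5 and Dusp6 in each of the 6 libraries. Bar heights run from 772 to 870, while the Dusp6 part lies between 386 and 402 in WT and between 125 and 193 in CSE-KO.

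The 3 Sprouty genes did not move alike. Sprouty proteins gather at the membrane after growth factor treatment and limit the activation of RAS and RAF. Spry1 (ENSMUSG00000037211, chromosome 3, 37639947 to 37644598, plus strand) stood at 371, 388 and 381 in the WT libraries and at 168, 155 and 134 in the CSE-KO libraries. The groups were far apart, and the CSE-KO mean was 40.1% of the WT mean of 380 ± 8.54. Its log2 fold change was −1.32 (SE 0.08, adjusted p = 5.1e-08), and 8.62% of tested genes had a lower value. Of its exonic bases 710 lie on the opposite strand of Gm42922, which was at 3 to 12 in the 6 libraries. Reads of such a pair can be told apart only where the counting used the strand.

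Spry2 (ENSMUSG00000022114, chromosome 14, 105891947 to 105896819, minus strand) stood at 441, 426 and 400 in the WT libraries and at 440, 431 and 441 in the CSE-KO libraries. All CSE-KO values lay within the WT range. The log2 fold change was 0.05, with a 95% interval from −0.05 to 0.15 (adjusted p = 0.31). It passed under the scalings that raise all CSE-KO values, with 0.14 by upper-quartile scaling and 0.12 with equal totals (adjusted p = 0.011 and 0.023).

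Spry4 (ENSMUSG00000024427, chromosome 18, 38586247 to 38601415, minus strand) rose slightly, from 526, 523 and 529 in the WT libraries to 565, 581 and 585 in the CSE-KO libraries. The groups did not overlap, and the gap between them was small (log2 fold change 0.13, SE 0.03, adjusted p = 0.0032). The call was lost with WT counted as 1 sample (adjusted p = 0.055) and in a test against a fold of 1.2 (adjusted p = 1). Summed per exonic kb, the 3 Sprouty transcripts went from 444 ± 8.48 in WT to 383 ± 3.68 in CSE-KO, and Spry2 held the largest part in all 6 libraries.

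Both Spred genes fell, by less than Spry1. Spred proteins bring neurofibromin, the RAS GTPase activator that Nf1 encodes, to the membrane, where RAS is switched off. Spred1 (ENSMUSG00000027351, chromosome 2, 117121374 to 117182279, plus strand) stood at 656, 683 and 681 in the WT libraries and at 502, 506 and 513 in the CSE-KO libraries, with the CSE-KO libraries close together. Its log2 fold change was −0.41 (SE 0.03, adjusted p = 6.1e-07). Spred2 (ENSMUSG00000045671, chromosome 11, 19924375 to 20024026, plus strand) stood at 698, 724 and 744 in the WT libraries and at 493, 478 and 465 in the CSE-KO libraries, again with a wide gap between the groups (log2 fold change −0.59, SE 0.04, adjusted p = 8.8e-08). Spred3, the remaining gene of the family, was at 731, 718 and 715 in the WT libraries and at 560, 578 and 577 in the CSE-KO libraries and fell by 0.34 on the log2 scale (adjusted p = 1.8e-06). Nf1 itself, chosen after its values were seen, averaged 1307 ± 11.2 in WT and 1047 ± 35.5 in CSE-KO (log2 fold change −0.32 and adjusted p = 1.45e-06).

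The PEA3 factors fell together. Etv4 (ENSMUSG00000017724, chromosome 11, 101769742 to 101785371, minus strand) was at 811, 807 and 811 in the WT libraries, nearly the same number each time, and at 468, 395 and 364 in the CSE-KO libraries. Its mean went from 810 ± 2.31 to 409 ± 53.4, or 50.5% of WT (log2 fold change −0.99, SE 0.09, adjusted p = 3.2e-05), and without CSE-KO 1 the log2 fold change was −1.09. Etv5 (ENSMUSG00000013089, chromosome 16, 22381309 to 22439719, minus strand) was at 367, 380 and 365 in the WT libraries and at 202, 176 and 202 in the CSE-KO libraries, or 52.2% of WT by its means (log2 fold change −0.94, SE 0.06, adjusted p = 1.4e-07). Neither overlapped between groups. Etv1, the remaining PEA3 gene, was much less abundant and was singled out after its values were seen. It was at 81, 76 and 79 in the WT libraries and at 24, 17 and 20 in the CSE-KO libraries (log2 fold change −1.94, adjusted p = 9.7e-07).

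**Figure D3:**
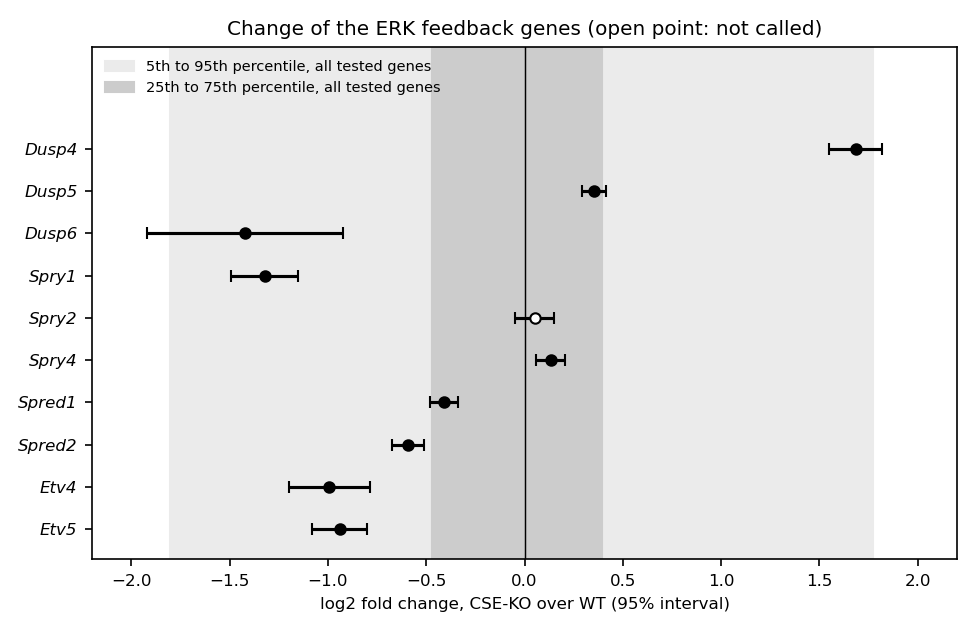
Log2 fold change of CSE-KO over WT (horizontal axis) of each ERK feedback gene with its 95% interval, over grey bands for the middle 50% and 90% of all 13750 tested genes. Dusp4 at 1.68 lies farthest to the right, Dusp6 at −1.42 and Spry1 at −1.32 lie farthest to the left, and Spry2, the open point, spans 0. The points of all ERK feedback genes lie inside the 90% band, which runs from −1.80 to 1.77.

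Counted per exonic kb, the order of the members' levels differed between the groups. In WT it ran from Dusp6 (395 ± 8.58) over Dusp5 (307 ± 4.45), Etv4 (261 ± 0.74), Spry2 (202 ± 9.94), Spred2 (156 ± 4.99), Spry1 (131 ± 2.94) and Spry4 (111 ± 0.63) to Spred1 (99.3 ± 2.22), Dusp4 (92.0 ± 8.22) and Etv5 (90.3 ± 1.99). The libraries of Dusp4 overlapped with those of both Spred1 and Etv5, so the last places are not ordered. In CSE-KO Dusp5 led (393 ± 2.75), followed by Dusp4 (295 ± 9.67), Spry2 (210 ± 2.64), Dusp6 (150 ± 36.8), Etv4 (132 ± 17.2), Spry4 (121 ± 2.23), Spred2 (104 ± 3.03), Spred1 (74.7 ± 0.82), Spry1 (52.4 ± 5.90) and Etv5 (47.1 ± 3.66). Dusp6 overlapped with Etv4, Etv4 with Spry4, and Spry1 with Etv5. CSE-KO 1 was the CSE-KO library nearest to the WT mean in 7 of the 9 members that changed, among them Dusp6, Etv4 and Spry1, and in 58% of all genes that changed. It tied with CSE-KO 3 in Etv5, and in Spred1 it was the farthest.

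The other genes of the pathway were counted from lists, beside the same background of 38.3% rising and 39.0% falling. With the totals of all libraries set equal, 44.0% of tested genes rose and 34.7% fell, and list counts marked as with equal totals are to be read beside these shares. Of the 7 other MAP kinase phosphatases, all changed, 4 upward and 3 downward, with a median log2 fold change of 0.12. Dusp10, a phosphatase of JNK and p38, was at 129, 151 and 160 in the WT libraries and at 651, 665 and 719 in the CSE-KO libraries, a rise of 4.63-fold (adjusted p = 4.1e-09). Dusp8 went from 95 ± 4.58 to 418 ± 14.7 (4.38-fold, adjusted p = 5.2e-10) and Dusp16 from 411 ± 10.8 to 772 ± 36.8 (1.88-fold, adjusted p = 9.0e-09). Dusp9, which prefers ERK, fell from 167 ± 14.8 to 98.3 ± 10.7 (adjusted p = 3.9e-05).

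At the top of the pathway, receptor tyrosine kinase ligands had a median log2 fold change of 1.35, with 13 higher and 7 lower of 22 tested. The list held 31, and the rest did not pass the filter on low values. Fgf16 passed it through its CSE-KO libraries alone and could hardly have been called lower. Nrg1, a ligand of the ERBB receptors, was at 52, 46 and 52 in the WT libraries and at 659, 691 and 686 in the CSE-KO libraries (13.5-fold, adjusted p = 3.6e-11). Epiregulin, Ereg, which binds the EGF receptor, went from 286 ± 6.56 to 966 ± 31.2, placental growth factor, Pgf, from 242 ± 6.08 to 1042 ± 20.8, and Pdgfa from 82.7 ± 6.51 to 442 ± 5.03. The receptor tyrosine kinases rose in 8 and fell in 11 of 22 tested (10 and 9 with equal totals). Among those that rose, Mst1r and Csf1r passed the filter on low values through their CSE-KO libraries alone. The VEGF receptor gene Kdr was at 2171, 2140 and 2119 in the WT libraries and at 1066, 919 and 955 in the CSE-KO libraries, and the angiopoietin receptor gene Tek fell by 1.57 on the log2 scale. Tie1 went from 2291 ± 37.1 to 1264 ± 77.6, and Mertk, which recognises dying cells through bridging ligands, rose from 973 ± 17.9 to 1303 ± 20.5. Kdr, Tek and Tie1 are also 3 of the 10 endothelial markers given above, so their falls are not separate from that count. Csf1r, which also marks macrophages, was named after its values were seen, at 3, 6 and 7 in the WT libraries and 48, 53 and 44 in the CSE-KO libraries. Egfr, which rose from 175 ± 32.5 to 1360 ± 30.1, and Kit, which fell from 448 ± 32.2 to 48.3 ± 31.2, were singled out in the same way.

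The core of the cascade had a median near 0. RAS, RAF, MEK and ERK genes with their scaffolds rose in 8 and fell in 4 of 17 tested, with a median of 0.02 (9 and 2 with equal totals). Ksr1, a scaffold that holds RAF, MEK and ERK together, was the exception in size, at 458, 408 and 431 in the WT libraries and at 171, 139 and 133 in the CSE-KO libraries (log2 fold change −1.55, adjusted p = 1.5e-07). The MEK gene Map2k1 rose from 838 ± 14.4 to 1080 ± 15.0, and the RAS relatives Mras and Rras2 rose by 0.98 and 0.48 on the log2 scale.

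Between receptors and RAS, adaptors and exchange factors rose in 5 and fell in 5 of 14 tested (median −0.01). Gab1, a docking protein for receptor tyrosine kinases, fell from 571 ± 12.5 to 293 ± 7.94, the phospholipase gene Plcg1 from 1789 ± 29.7 to 962 ± 81.5 and the adaptor gene Shc1 from 1289 ± 13.7 to 1009 ± 27.8, while Crkl rose from 818 ± 15.0 to 1166 ± 27.9. RAS GTPase activators and other inhibitors rose in 6 and fell in 7 of 18 tested (median 0.02, 9 and 7 with equal totals). Lztr1, which directs RAS proteins to breakdown, fell from 908 ± 25.1 to 482 ± 26.5, and the RAS GTPase activator genes Rasa3 and Dab2ip fell by 0.67 and 0.47 on the log2 scale, while Rasa2 rose by 0.60.

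Downstream of ERK the lists split. ETS factors outside the set rose in 6 and fell in 7 of 15 tested (median −0.03). Erg, which keeps endothelial identity and is also 1 of the 10 endothelial markers, fell from 1196 ± 0.58 to 841 ± 20.3, Elk4 from 963 ± 13.7 to 648 ± 25.2 and Elf2 from 901 ± 27.8 to 694 ± 6.03, while Ets1 rose from 1446 ± 9.61 to 1716 ± 52.7. Other transcripts known to follow ERK rose in 11 and fell in 7 of 22 tested, with a median of 0.14 (14 and 6 with equal totals). Fosl1, an AP-1 subunit, was at 396, 371 and 407 in the WT libraries and at 889, 924 and 942 in the CSE-KO libraries (2.35-fold, adjusted p = 1.1e-09). The cytokine genes Il11 and Lif went from 21.7 ± 4.51 to 271 ± 16.01 and from 65.3 ± 4.51 to 289 ± 11.7, and the ephrin receptor gene Epha2 from 1517 ± 12.1 to 2377 ± 43.3. Phlda1, chosen after its values were seen, stood at a log2 fold change of 1.70 and Fos at −1.28. Transcripts used as readouts of ERK activity thus moved in both directions in the same libraries, within the feedback set and outside it.

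**Figure D4:**
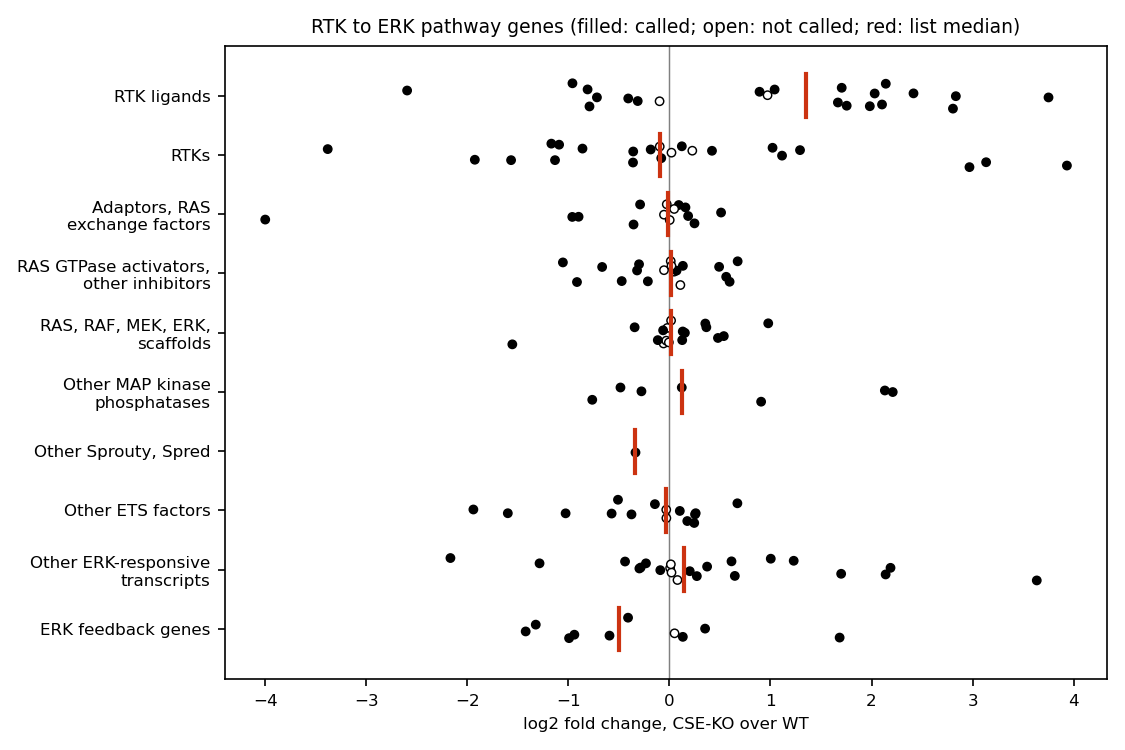
Log2 fold change of CSE-KO over WT (horizontal axis) for each tested gene of 9 pathway lists and of the ERK feedback genes, 1 point per gene, filled where called, with the list median in red. RTK stands for receptor tyrosine kinase. The ligands have the highest median, 1.35, and the ERK feedback genes the lowest, −0.50.

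The genes whose pattern over the 6 libraries was most like that of a member were found by the Euclidean distance of centred log2 values among 10497 genes. For Dusp6 they were Lmo2 (distance 0.07, with 764, 750 and 756 in WT and 379, 266 and 239 in CSE-KO), Ctnnal1 (0.11) and Fignl1 (0.11). For Etv5 they were Slc44a1 (0.06), Itpk1 (0.07) and Mphosph9 (0.08), and for Spry2 they were S100a11 (0.03), Pabpc1 (0.05) and Mbnl1 (0.05). The points share their libraries and their scaling, and 6 libraries in 2 groups leave many genes with like patterns.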

How the data were processed

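The 6 libraries were grouped by their titles. Per the labels' protocols, stranded mRNA libraries were made from 300 ng of RNA with a Vazyme VAHTS kit and read as single ends of 75 bp. The submitters' processing notes name build mm10 and, with no role stated, DESeq2 1.26.0, featureCounts 1.6.5, Picard 2.21.7, STAR 2.7.3a and Trimmomatic 0.39. The strand setting of the counting is not given in the sources used here. The authors deposited a whole-number score per gene, read here from its values as a count divided by a size factor and rounded. Raw counts were not used, and no count model was run.

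limma 3.58.1 in R 4.3.3 was fitted to log2(value + 0.5) of genes with at least 10 in at least 3 libraries. Group was the only term, with a mean trend and robust variances, two-sided. The fit was also run on simulated counts with the same excess spread for all genes and libraries. The spread of these libraries was not alike, so that run does not check the calls made here. Fold changes on the log2(value + 0.5) scale understate those of low genes. Adjusted p-values are Benjamini-Hochberg over all tested genes. Exonic lengths are from GENCODE mouse release M21 (GRCm38), whose coordinates matched the table's for all 10 members. If reads with a shared start were removed, changes of genes dense in reads are understated. From each pathway list up to 4 members with the smallest adjusted p and a mean of at least 50 are named. The members and lists were chosen with earlier results of these data known. Scaling, filters, the pseudocount, the variance model, the replicate number as a block, single libraries, merged libraries and a correction for shared starts were varied.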

Additional observations from a re-analysis of the deposited data

How the results depend on the processing

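The 10 members were recomputed under 19 alternatives, which gave 190 log2 fold changes. The filters, the variance model, the test against a fold of 1.2 and the replicate block leave the log2 fold change as it was. Direction could not change under those settings. All 190 kept their direction and 184 kept their side of the threshold. The exceptions are Spry2, Spry4 and Dusp6 as given above, with Spry4 also not passing when WT was counted as 1 sample and CSE-KO 2 and 3 as 1 (log2 fold change 0.13, adjusted p = 0.11). Of the 10 members, between 7 and 10 changed. The count of all changed genes was 10639 and lay between 10137 and 10636 when 1 library was left out, with 9 members changed each time. A test against a fold of 1.2 called 6711 genes and 8 members. A correction for reads lost at shared starts moved Dusp6 to −1.65, Dusp4 to 1.86 and Etv4 to −1.10, the members with 0.40, 0.09 and 0.26 normalized counts per exonic base in WT. Dusp4 was denser in CSE-KO, at 295 normalized counts per exonic kb against 92.0 in WT. Dusp5, at 0.31 per exonic base in WT, moved to 0.44. The replicate number was not treated as a pairing, since deviations of same-numbered libraries from their group means correlated at −0.00079, 0.02 and 0.01, and WT 1 did not correlate best with CSE-KO 1. WT 2 and WT 3 did correlate best with CSE-KO 2 and CSE-KO 3, at those low values. With the replicate number as a block, 10440 genes and 9 members changed. Depth limits low genes more than these members, whose lowest value in any library was 134.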
